A study of Mus musculus with 5 samples.

Results

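Transcripts of 10 glycolytic enzyme genes, Hk1, Gpi1, Pfkm, Pfkl, Pfkp, Aldoa, Tpi1, Pgk1, Pkm and Ldha, were followed across the cell types of the mouse kidney and over recovery from ischemia-reperfusion injury. They were picked by symbol from the 27998 genes in the files, and all 10 were detected in each of the 5 libraries. Single nuclei had been isolated from kidneys of male Six2-TGC; Rosa26rtTA; pTRE-H2BeGFP mice aged 10 to 12 weeks and fed doxycycline at 625 mg/kg of food, in which Six2 lineage nephron nuclei carry a GFP-tagged histone. All 5 libraries shared that genotype, diet and sex. Nuclei were sorted on DAPI and then on GFP. Uninjured kidneys gave 1 GFP positive and 1 GFP negative library, both with a serum creatinine of 0.122 mg/dL. Kidneys whose 2 pedicles had both been clamped gave GFP positive libraries at 64 h, 96 h and 28 d, with a creatinine of 0.375, 0.312 and 0.144 mg/dL. The labels call the first group uninjured, while the series' design names sham surgery. Neither states how many animals were pooled.

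Glycolysis splits glucose into pyruvate and yields ATP without oxygen, and lactate dehydrogenase turns pyruvate and lactate into each other. Several steps have isozymes encoded by separate genes, of which some are widespread and others are known for liver, kidney cortex or muscle. The proximal tubule makes glucose from lactate and other precursors and burns mainly fatty acids. The thick ascending limb (TAL) and more distal segments take up glucose and use it.

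In mm10 coordinates with GENCODE annotation, the hexokinase gene Hk1, which traps glucose in the cell, lies at chr10:62268855-62379908. Gpi1, glucose-6-phosphate isomerase, lies at chr7:34201330-34230336. Phosphofructokinase, the committing step, has a muscle-type gene Pfkm at chr15:98092589-98132451, a liver-type gene Pfkl at chr10:77986947-78010083 and a platelet-type gene Pfkp at chr13:6579768-6648777. Aldoa, the aldolase that splits the hexose, lies at chr7:126795234-126800751, Tpi1, triose phosphate isomerase, at chr6:124810586-124814296, and Pgk1, phosphoglycerate kinase, at chrX:106187100-106203699. The pyruvate kinase gene Pkm, which makes pyruvate and ATP in the last step, lies at chr9:59656368-59679375. Ldha, lactate dehydrogenase A, lies at chr7:46841475-46855627.

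Several of these genes were higher together after injury, and stretches before 4 transcription start sites are shown, each holding letters marked below. They are from RefSeq on GRCm38.p6 and without bases that the annotation counts as exon. ACGTG is the core letters bound by hypoxia-inducible factors, GCGTG is a second form of the same core, and CACGTG is the E-box of the MYC and carbohydrate response factors, which contains ACGTG. Capitals mark every ACGTG or GCGTG on either strand, so that CACGT and CACGC are the same letters read on the other strand, and a capital CACGTG is both an E-box and 2 overlapping ACGTG matches.
Ldha, chr7:46845554-46845803, plus strand: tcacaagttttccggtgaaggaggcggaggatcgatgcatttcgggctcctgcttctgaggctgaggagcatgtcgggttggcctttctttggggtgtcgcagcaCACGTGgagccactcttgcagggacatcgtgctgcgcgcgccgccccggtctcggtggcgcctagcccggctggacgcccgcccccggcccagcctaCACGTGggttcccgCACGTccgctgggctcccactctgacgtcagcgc
Pgk1, chrX:106186850-106187099, plus strand: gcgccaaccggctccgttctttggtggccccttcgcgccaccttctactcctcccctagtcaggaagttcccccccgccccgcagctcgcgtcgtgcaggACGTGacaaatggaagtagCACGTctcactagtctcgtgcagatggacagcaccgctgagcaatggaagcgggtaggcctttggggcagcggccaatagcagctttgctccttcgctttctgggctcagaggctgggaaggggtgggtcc
Aldoa, chr7:126799255-126799504, minus strand: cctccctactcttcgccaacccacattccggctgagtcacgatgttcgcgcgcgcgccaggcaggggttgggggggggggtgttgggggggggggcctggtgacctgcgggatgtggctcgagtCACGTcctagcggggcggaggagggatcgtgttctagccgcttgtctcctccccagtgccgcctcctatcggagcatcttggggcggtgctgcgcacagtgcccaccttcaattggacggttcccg
Pfkp, chr13:6648778-6649021, minus strand: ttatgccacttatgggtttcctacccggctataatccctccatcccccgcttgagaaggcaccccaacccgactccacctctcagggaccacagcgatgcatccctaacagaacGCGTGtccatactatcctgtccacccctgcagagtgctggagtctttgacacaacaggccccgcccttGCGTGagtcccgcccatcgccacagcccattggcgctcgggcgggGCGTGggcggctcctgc
Ldha held 5 ACGTG matches in this stretch, including 2 E-boxes, Pgk1 held 2 and Aldoa held 1. Over all their stretches, Ldha held ACGTG in 1 of 2 and Aldoa in 2 of 3. Those 2 Aldoa stretches overlap and share the same match. Pgk1 passed 1.5-fold in PT-like nuclei at 96 h alone. Pfkp held no ACGTG and 3 GCGTG. Of 32851 mouse promoter stretches of 250 bases, 16.6% held ACGTG, 28.2% held GCGTG and 6.02% held CACGTG. The single stretches of Gpi1 and Tpi1 held none of the 3, and neither of 2 Hk1 stretches held ACGTG. Of the other enzymes, Pkm held ACGTG in 1 of 2 stretches, not within its longest run of bases outside exons. Pfkm, which was not higher in PT-like nuclei at 64 h or 96 h, held ACGTG in 2 of 4, with CACGTG in 1. These matches describe letters and do not show that a factor bound there.

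The libraries held 3012 to 3508 nuclei after filtering, with 1922002 to 7153971 UMIs (unique molecular identifiers, each counted once per captured transcript) and a median of 484 (96 h) to 1793.5 (GFP positive, no injury) UMIs per nucleus. Mitochondrial UMIs made up 0.0498% to 0.155%, and any pair of libraries shared 9 to 20 cell barcodes. With 1 library per group there is no replicate, so no test between groups was made. Levels are CPM, the UMIs of a gene divided by the UMIs that all nuclei of a class gave in a library, on the usual CPM scale, and every interval in parentheses covers counting error only, at 95%, not differences between animals. UMIs from PCR-amplified libraries are independent molecules only as far as the identifiers separate them. A gene is called higher or lower in a comparison where it has at least 20 UMIs in the 2 sums together and the ratio of (CPM + 1) is at least 1.5 in that direction.

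Clusters were made with 27 glycolytic genes kept out of the variable genes, and were named from marker genes. Proximal tubule-like (PT-like) nuclei numbered 383 in the GFP negative library, 2278 in the uninjured GFP positive library, and 1905, 2240 and 2147 at 64 h, 96 h and 28 d. TAL-like nuclei numbered 490, 331, 479, 374 and 252 in the same order. The GFP negative library also held 786 endothelium-like, 565 fibroblast and mural-like, 449 collecting duct (CD) principal-like, 178 intercalated-like and 119 macrophage and dendritic-like nuclei. Cluster 13, led by tubule injury genes and by no segment's markers, stayed unnamed and is called injury-led. It held 73 nuclei in the uninjured GFP positive library, 258 at 64 h, 369 at 96 h, 315 at 28 d and 0 in the GFP negative library. PT-like nuclei came mostly from different clusters over time: cluster 8 (led by Folh1 and Ugt1a10) held 70.2% of them at 64 h and cluster 9 (led by Havcr1, Fgg and C3 among others) held 81.6% at 96 h, against 3.69% in cluster 8 without injury. Cluster 9 had 3 tubule injury genes and 1 proximal tubule marker among its 10 leading genes, so its PT-like name is less firm. With glycolytic genes allowed among the variable genes, a cluster holding 1767 of the 96 h nuclei had no proximal tubule marker among its leading genes and was called injury-led.

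Transcripts of the enzymes differed between nephron segments gene by gene without injury. Hk1, Pfkp and Pkm were many-fold lower in PT-like nuclei than in TAL-like nuclei, while Aldoa, Tpi1, Pgk1 and Ldha were at similar levels in both. In the uninjured GFP positive library, 6 of 10 enzymes were higher in TAL-like than in PT-like nuclei and 0 were lower, where 28% of all genes were higher and 27.2% lower. The GFP negative library gave 6 of 9 measured and 0 lower, where 25.1% and 27% of all genes were. The same 6 genes made up both counts, namely Hk1, Gpi1, Pfkm, Pfkl, Pfkp and Pkm. The median log2 difference was 1.33 and 1.30, against 0.07 and 0.02 over all genes.

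Hk1, the gene behind most hexokinase UMIs, had the widest spread between cell types. In PT-like nuclei it was at 4.97 CPM (3.18 to 7.39) in the uninjured GFP positive library and 12.8 CPM (6.40 to 22.9) in the GFP negative one. TAL-like nuclei held 206 CPM (164 to 255) and 214 CPM (179 to 254). The TAL-like level was 41.4 times (26.0 to 68.2) and 16.7 times (9.05 to 34.3) the PT-like one, ratios that count any stray TAL RNA among the PT-like UMIs. After TAL-like nuclei, the GFP negative library had intercalated-like nuclei at 184 CPM, distal convoluted tubule-like (DCT-like) at 155, connecting tubule-like (CNT-like) at 121, thin limb-like at 119 and CD principal-like at 111. Hk1 stood at 79.3 CPM in endothelium-like, 43.1 in fibroblast and mural-like and 29.5 in macrophage and dendritic-like nuclei, where the last value rests on 2 UMIs. Every neighbouring pair in that order had overlapping intervals, so this depth does not rank neighbours, while classes further apart in the order can differ. Among the 5 classes of the uninjured GFP positive library, 2 of 4 neighbouring pairs overlapped.

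Hk1 in PT-like nuclei was set beside the level at which TAL markers appeared there. In the uninjured GFP positive library the 10 TAL markers summed to 1.76% of their TAL-like level in PT-like nuclei, 9 of them single genes at 0.221% to 3.64% and Cldn10 at 81.5%. Cldn10 gave 1152 of the 2088 marker UMIs in those PT-like nuclei, so the sum is mostly Cldn10. Hk1 stood at 2.41% of its TAL-like level there, Pkm at 8.73% and Pfkp at 10.6%. In the GFP negative library the markers summed to 1.73% and Hk1 stood at 5.98%. After thinning every nucleus to 600 UMIs, 0.263% (0.0967 to 0.572) of PT-like and 12.1% (8.78 to 16.1) of TAL-like nuclei of the GFP positive library had an Hk1 UMI, against 1.05% and 20.5% without thinning. Stray RNA also went the other way: the proximal tubule gene Slc34a1 had a UMI in 89.7% of thinned PT-like and 34.4% of thinned TAL-like nuclei. Median depths were 1931 UMIs in PT-like and 1097 in TAL-like nuclei. The uninjured GFP positive PT-like value of Hk1 lay within the range of the 9 markers, above 7 of them and under Umod and Ppp1r1b.

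Gpi1, which carries glucose 6-phosphate to fructose 6-phosphate, was more even. PT-like nuclei held 67.0 CPM (59.9 to 74.8) in the GFP positive and 99.0 CPM (79.1 to 122) in the GFP negative library. TAL-like nuclei held 126 CPM (94.1 to 166) and 172 CPM (141 to 208), which is 1.88 times (1.37 to 2.54) and 1.74 times (1.29 to 2.34) the PT-like level. Fibroblast and mural-like nuclei had the lowest level, 58.2 CPM (38.3 to 84.6).

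Of the phosphofructokinase genes, Pfkp showed the strongest pattern by segment. It was at 19.2 CPM (15.5 to 23.6) in PT-like and 181 CPM (142 to 227) in TAL-like nuclei of the GFP positive library, a ratio of 9.40 (6.82 to 12.9). The GFP negative library gave 39.6 CPM (27.4 to 55.4) and 199.7 CPM (166 to 238), a ratio of 5.04 (3.42 to 7.60). Thin limb-like nuclei were next, at 111 CPM and 186 CPM in the 2 libraries. All other classes of the GFP negative library lay between 26.4 CPM in endothelium-like and 88.6 CPM in macrophage and dendritic-like nuclei. Thinned to 600 UMIs, the ratio of TAL-like to PT-like nuclei was 13.8 in the GFP positive library. Pfkl and Pfkm had few UMIs: in the GFP positive library Pfkl stood at 5.38 CPM in PT-like and 27.3 in TAL-like nuclei (26 and 11 UMIs), and Pfkm at 6.62 and 24.8 CPM (32 and 10 UMIs). Of the other classes, Pfkm was highest in CNT-like nuclei of the GFP negative library, at 64.8 CPM (28.0 to 128) from 8 UMIs.

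Tpi1, which interconverts the 2 triose phosphates, had the narrowest range of the enzymes with UMIs in every class. It went from 61.2 CPM in CD principal-like to 118 CPM in macrophage and dendritic-like nuclei of the GFP negative library, a ratio of 1.93. No class stood apart from its neighbours in that order. Its TAL-like to PT-like ratio was 0.870 (0.575 to 1.27) in the GFP positive library. Aldoa stood at 84.8 CPM (76.8 to 93.5) in PT-like nuclei of that library. In the GFP negative library the Aldoa values ran from 73.8 CPM in macrophage and dendritic-like through 103 in PT-like, 125 in fibroblast and mural-like, 165 in endothelium-like, 169 in CD principal-like and 201 in intercalated-like to 265 CPM (162 to 409) in thin limb-like nuclei. Pgk1, the first ATP-yielding step, had 0 to 10 UMIs in each class of the GFP negative library and 49 UMIs, 10.1 CPM (7.50 to 13.4), in PT-like nuclei of the GFP positive one.

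Pkm resembled Hk1 in its order of classes. PT-like nuclei held 14.3 CPM (11.1 to 18.1) and 26.8 CPM (16.99 to 40.2) in the GFP positive and GFP negative libraries. TAL-like nuclei held 164 CPM (126 to 208) and 157 CPM (128 to 192), 11.5 times (8.05 to 16.3) and 5.88 times (3.70 to 9.70) as much. Intercalated-like (151 CPM), endothelium-like (128), CD principal-like (97.5) and fibroblast and mural-like (86.2) nuclei lay close behind, so PT-like nuclei alone stood low in the GFP negative library. Across 36 pairs of a class and a library, log2 levels of Hk1 and Pkm had a correlation of 0.80, Hk1 and Pfkp of 0.69, and Pfkp and Pkm of 0.68, as a description, since classes of 1 library share its depth and stray RNA.

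Ldha, whose enzyme favours the making of lactate, did not follow that order. It was at 54.8 CPM (48.4 to 61.9) in PT-like and 49.6 CPM (30.3 to 76.5) in TAL-like nuclei of the GFP positive library. In the GFP negative library it was highest in thin limb-like (106 CPM), endothelium-like (104 CPM, 76.1 to 138) and CD principal-like nuclei (94.2 CPM, 71.4 to 122), and lowest in DCT-like nuclei (34.4 CPM, 14.8 to 67.7).

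**Figure D1:**
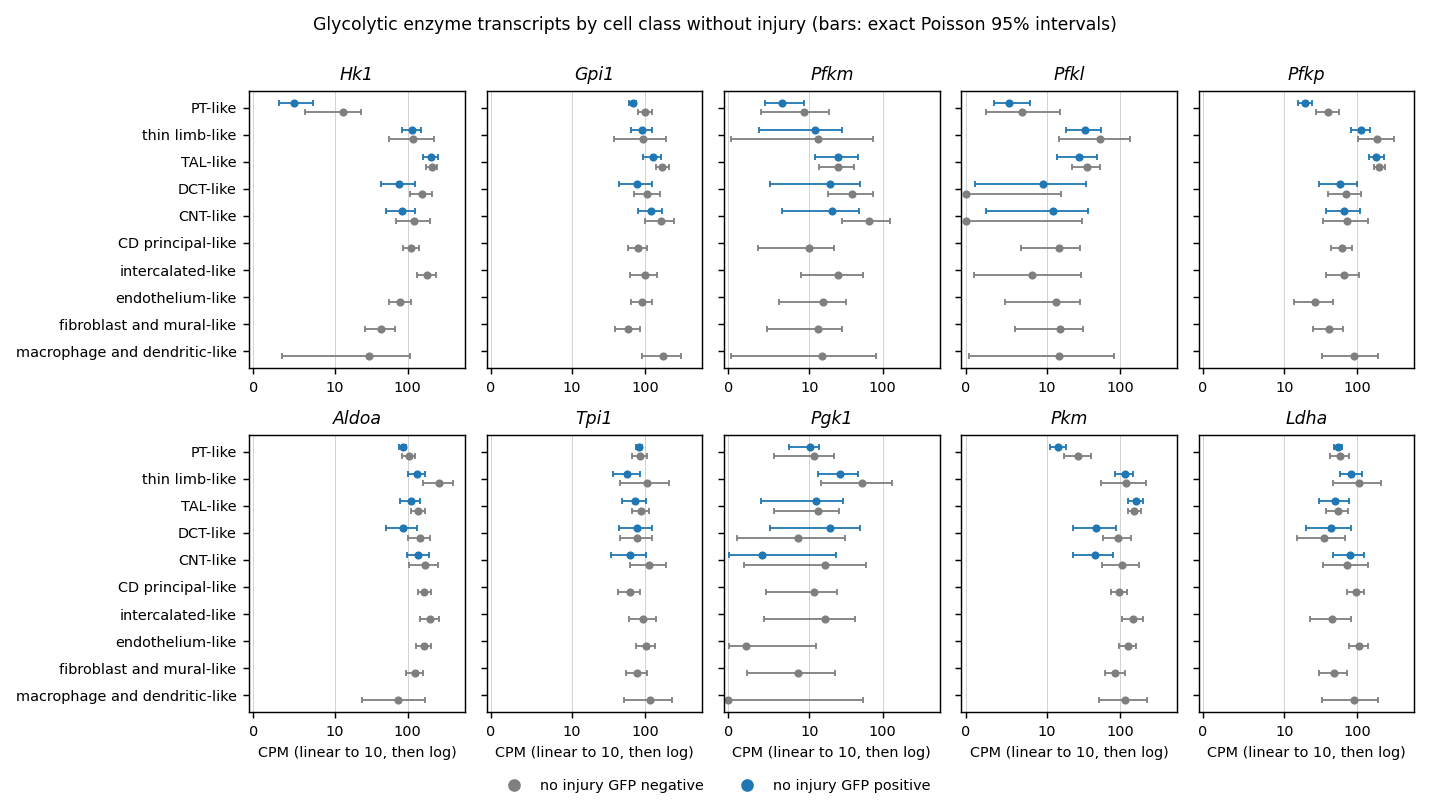
CPM of each enzyme (x axis, linear to 10 CPM and logarithmic above) by cell class (y axis) in the uninjured GFP positive (blue) and GFP negative (gray) libraries, with exact Poisson 95% intervals. Hk1, Pfkp and Pkm are lowest or near lowest in PT-like nuclei, 4.97, 19.2 and 14.3 CPM in the GFP positive library, while Tpi1 is nearly level across classes.

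The GFP negative library gave the cell types outside the Six2 lineage. Endothelium-like nuclei had 4 of 7 measured enzymes higher than PT-like nuclei of the same library and 0 lower, where 30.5% of all genes were higher and 29.2% lower. The 4 were Hk1 at 6.19 times (3.08 to 13.5), Pkm at 4.77 (2.90 to 8.10), Ldha at 1.81 (1.19 to 2.76) and Aldoa at 1.61 (1.17 to 2.22), while Pfkp stood at 26.4 CPM against 39.6. Fibroblast and mural-like nuclei had 2 of 7 higher, Hk1 at 3.36 times (1.54 to 7.77) and Pkm at 3.22 (1.88 to 5.63), and 1 lower, Gpi1 at 0.587 (0.366 to 0.915), against 27.7% and 28.8% of all genes. CD principal-like nuclei belong to the ureteric lineage, outside that of Six2, and had 5 of 7 higher against 26.6% of all genes, and intercalated-like nuclei 4 of 7 against 27.2%. In both, Hk1 had the widest gap to PT-like nuclei, at 8.64 times (4.53 to 18.1) and 14.4 times (7.32 to 30.8). Macrophage and dendritic-like nuclei had 4 of 6 higher against 32.6% of all genes, namely Gpi1, Pfkp, Pkm and Ldha on 6 to 12 UMIs each. Proximal tubule RNA was present in all these classes: 10 proximal tubule genes summed to 6.72% to 22.2% of their PT-like level in the other classes of the GFP negative library.

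Nuclei of the same class could be compared between the 2 uninjured sorts. TAL-like nuclei had 0 of 9 measured enzymes higher and 0 lower in the GFP positive library, where 9.77% and 12.2% of all genes were. PT-like nuclei had 3 of 10 lower and 0 higher, where 24.5% of all genes were lower and 10.1% higher, so the share is near that of all genes. The 3 were Hk1 at 0.387 (0.183 to 0.876), Pfkp at 0.486 (0.325 to 0.742) and Pkm at 0.533 (0.328 to 0.895), the genes with the widest TAL to PT gap. The PT-like nuclei of the 2 sorts also differed in makeup: cluster 11, led by Cyp7b1 and Slc22a19 among others, held 54.3% of them in the GFP negative and 9.61% in the GFP positive library. Within cluster 11, Pfkp stood at 34.8 CPM (21.0 to 54.4) in the GFP negative and 55.5 CPM (38.2 to 77.9) in the GFP positive library. Thin limb-like nuclei had 3 of 7 lower in the GFP positive library (16.4% of all genes), DCT-like 3 of 6 (17.4%) and CNT-like 2 of 7 (16.3%), with 0 higher in each. Proximal tubule genes stood at 28.0%, 43.4% and 47.5% of their PT-like level in those classes of the GFP positive library, against 10.95%, 7.78% and 13.4% in the GFP negative one, and the part of this stray RNA in the lower values was not tested.

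Phosphofructokinase UMIs came mostly from Pfkp in nearly every class. Without injury Pfkp gave 61.6% (53.3 to 69.4) of the summed Pfkm, Pfkl and Pfkp UMIs in PT-like nuclei of the GFP positive library and 70.8% (55.9 to 83.0) in those of the GFP negative one. TAL-like nuclei had 77.7% (67.9 to 85.6) and 76.9% (69.6 to 83.2). Over 11 pairs of a class and an uninjured library with at least 20 such UMIs the share ran from 48% (27.8 to 68.7) in endothelium-like nuclei to that of TAL-like nuclei. The long Pfkp gene, which spans 69.0 kb against 39.9 for Pfkm and 23.1 for Pfkl, can collect more nuclear UMIs per transcript. Per kb of gene span the Pfkp share in the GFP positive library was 41.2% in PT-like and 59.3% in TAL-like nuclei, and per kb of exon it was 34.0% and 54.0%. On both scales it was the greatest of the 3 in TAL-like nuclei. In PT-like nuclei Pfkm led per kb of exon, at 46.9%.

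After injury the Pfkp share in PT-like nuclei was at first higher than in the uninjured GFP positive library. The 64 h, 96 h and 28 d libraries gave 83.3% (76.8 to 88.6), 77.5% (68.1 to 85.1) and 65.0% (55.6 to 73.5). The 64 h interval lies above the uninjured GFP positive one, and the 28 d interval covers the uninjured GFP positive value. The wider interval of the GFP negative PT-like nuclei, given above, overlaps each of these, so the difference depends on the reference. Per kb of span the 64 h value was 68.0% and per kb of exon 62.4%. Thinned to 600 UMIs, the 96 h share was 65.4%. TAL-like nuclei stayed between 76.3% and 81.8% over the same libraries. Injury-led nuclei used Pfkp nearly alone, with 53 of 57 phosphofructokinase UMIs at 64 h (93.0%, 83.0 to 98.1), 41 of 42 at 96 h (97.6%, 87.4 to 99.9) and 45 of 49 at 28 d (91.8%, 80.4 to 97.7). Pfkm had 0, 0 and 1 UMIs there. Injury-led nuclei of the uninjured GFP positive library had 9 Pfkp UMIs and 1 other. The high share was thus present without injury too, on few UMIs.

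**Figure D2:**
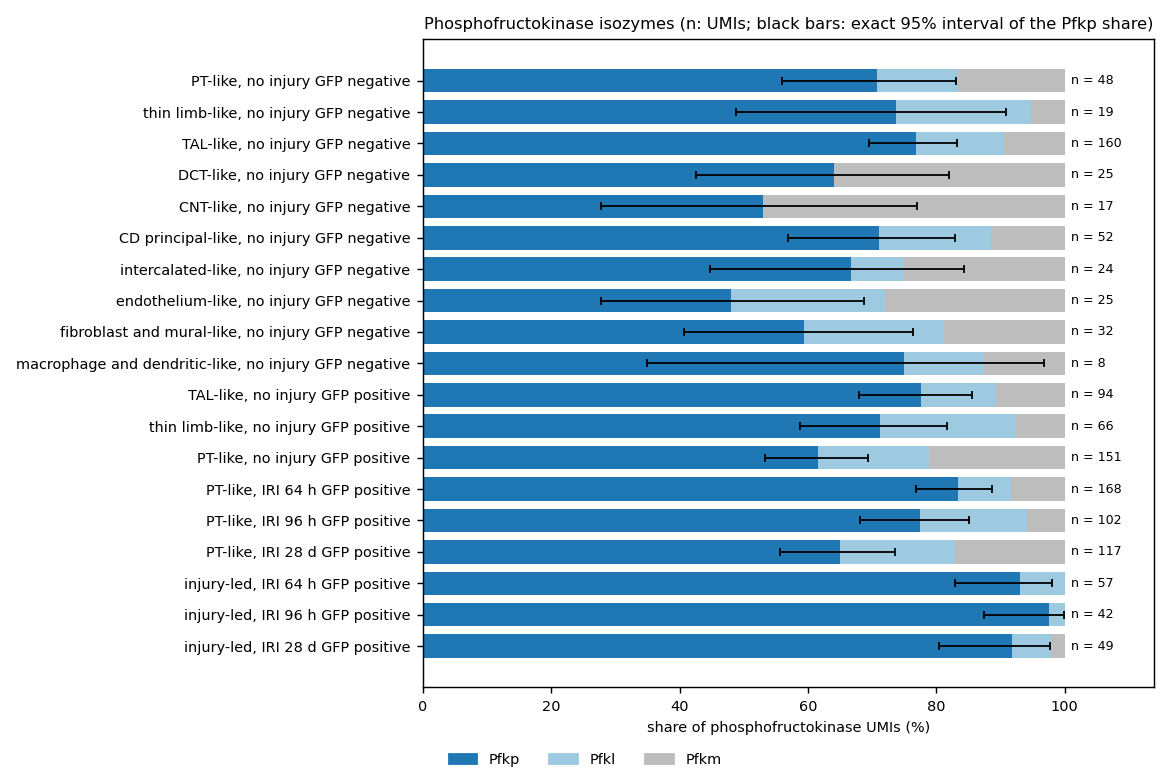
Share of phosphofructokinase UMIs (x axis, percent) from Pfkp, Pfkl and Pfkm by class and library (y axis), with n the UMIs behind each bar and black lines the exact binomial 95% interval of the Pfkp share. The Pfkp share runs from 48% in endothelium-like nuclei to 97.6% in injury-led nuclei at 96 h.

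Other steps showed their own isozyme use. Pklr, the pyruvate kinase known for liver and proximal tubule, was close to absent outside the proximal tubule. It had 53 UMIs, 10.97 CPM (8.22 to 14.3), in PT-like nuclei of the uninjured GFP positive library, where Pkm gave 56.6% (47.3 to 65.5) of pyruvate kinase UMIs. All 66 pyruvate kinase UMIs of TAL-like nuclei in that library and all 97 in the GFP negative one were Pkm, as were all 58 of endothelium-like nuclei. PT-like nuclei kept a Pkm share of 56.1%, 51.5% and 59.4% at 64 h, 96 h and 28 d, all within the uninjured interval. Injury-led nuclei stood at 89.2% (80.4 to 94.9), 93.3% (77.9 to 99.2) and 74.1% (53.7 to 88.9). Per kb of gene span the uninjured PT-like share of Pkm was 37.6% and per kb of exon 45.7%, so which gene leads depends on length. The counts join all splice forms of Pkm, so the M1 and M2 forms were not separated here.

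For lactate dehydrogenase, Ldhb, whose enzyme favours lactate use, gave most UMIs in nearly every class. The Ldha share in PT-like nuclei was 16.4% (14.6 to 18.3) in the uninjured GFP positive library. The 3 later libraries, by time, gave 23.3% (20.9 to 25.8), 32.8% (28.8 to 37.0) and 19.7% (16.8 to 23.0). The TAL-like shares were 10.6%, 8.54%, 7.26% and 13.0% in this order, with overlapping intervals. Thin limb-like (36.8%), endothelium-like (33.8%) and CD principal-like nuclei (28.8%) had the highest Ldha shares without injury among classes with at least 20 such UMIs, and DCT-like nuclei of the GFP negative library the lowest, 5.63% (2.46 to 10.8). Injury-led nuclei gave 14.9% (7.66 to 25.0), 35.4% (28.1 to 43.2), 37.7% (28.8 to 47.3) and 13.5% (8.59 to 19.96), again in that order. Per kb of gene span the PT-like share of Ldha was 19.7% without injury and 37.9% at 96 h, and per kb of exon 8.51% and 18.8%. Of the 50-base windows in the last 500 bases of Ldhb transcripts, 24.4% also occur in another gene, so its counts are less certain than those of Ldha, for which none do.

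Hk1 made up 76.2% to 100% of hexokinase UMIs in classes of the uninjured libraries with at least 20 of them. In PT-like nuclei of the GFP positive library it was 88.9%, or 66.1% per kb of gene span and 77.9% per kb of exon. Hk2, the inducible hexokinase, had 0 UMIs in PT-like nuclei of the uninjured GFP positive library, which allows up to 0.763 CPM, and 2 at 96 h. In injury-led nuclei it had 7 UMIs at 64 h and 8 at 96 h, 30.4% (13.2 to 52.9) and 32% (14.9 to 53.5) of hexokinase UMIs, and 1 at 28 d.

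Over the time course most of the enzymes took up a larger share of the UMIs of PT-like nuclei, with the highest values at 96 h. In these libraries 6 of 10 enzymes were higher than in the uninjured GFP positive library at 64 h, 9 of 10 at 96 h and 5 of 10 at 28 d, and 0 were lower at any time. Of all genes, 22.9%, 36% and 12.8% were higher and 12.1%, 13.9% and 8.79% lower. The median log2 difference of the enzymes was 0.80, 1.30 and 0.58, against 0.16, 0.28 and 0.06 over all genes. Scaling the sums by trimmed mean of M values (TMM) moved all log2 differences by -0.21, -0.42 and -0.11 and gave 5, 7 and 3 of 10 higher with 0, 1 (Pfkm) and 0 lower, beside 15.6%, 21.1% and 9.52% of all genes higher and 17.7%, 28% and 12% lower. The 3 times share 1 uninjured library as reference. These are shares of UMIs and not counts per nucleus. PT-like nuclei had a median of 506 UMIs at 96 h against 1931 without injury. At 96 h a smaller percentage of them had a UMI of each enzyme, such as Aldoa at 12.5% against 16.0%. Thinned to a common depth, nuclei deep enough gave 11.1% against 5.27% for Aldoa, while Pfkm and Pgk1 stayed lower at 96 h.

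Gpi1 stood at 67.0 CPM without injury and at 131 (118 to 145), 182 (159 to 207) and 125 (111 to 140.3) at 64 h, 96 h and 28 d. It was the enzyme with the highest ratio to the uninjured level at 28 d, 1.87 times (1.59 to 2.19). Pfkp went from 19.2 CPM to 49.1 (41.3 to 57.9), 63.0 (49.9 to 78.5) and 32.0 (25.2 to 40.1), and its levels in PT-like nuclei stayed under the lowest TAL-like value, 119.8 CPM at 28 d. Pfkl stood at 5.38, 4.91, 13.6 and 8.85 CPM, on 14 to 26 UMIs, and Pfkm at 6.62, 4.91, 4.78 and 8.43 CPM, on 6 to 32 UMIs. Of the phosphofructokinase genes, then, Pfkp alone was at least 1.5-fold higher at all 3 times.

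Aldoa went from 84.8 CPM to 152 (138 to 167), 248 (221 to 277) and 124 (110 to 139) over the 3 times. Tpi1 followed, from 82.6 CPM to 171 (156 to 187), 257 (229 to 286) and 126 (113 to 142). Both were at similar levels in PT-like and TAL-like nuclei without injury, and at 96 h Tpi1 was lower in TAL-like than in PT-like nuclei, at 0.612 times (0.397 to 0.908). Pgk1 stood at 10.1, 11.9, 15.9 and 7.59 CPM, with all 4 intervals overlapping.

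Pkm stood at 14.3, 26.0 (20.4 to 32.6), 27.9 (19.4 to 38.8) and 17.3 (12.4 to 23.5) CPM, far under every TAL-like value, of which the lowest was 83.3 CPM. Without cluster 9, an alternative chosen after the data were seen, the log2 difference of Pkm at 96 h was -0.89 and that of Pgk1 -0.47, so these values rested on that cluster. Ldha went from 54.8 CPM to 94.7 (83.7 to 107) and 138 (118 to 160) and was back at 54.8 (45.8 to 65.1) at 28 d. TAL-like nuclei held between 45.4 and 52.4 CPM of Ldha after injury, so that Ldha was lower there than in PT-like nuclei at 64 h (0.479, 0.302 to 0.728) and 96 h (0.380, 0.171 to 0.738). The 64 h value joined 2 TAL-like clusters, cluster 3 at 90.0 CPM (18 UMIs) and cluster 2 at 18.2 CPM (6 UMIs). Only cluster 2 stood far under the PT-like 94.7 CPM. Hk1 stood at 4.97, 7.02, 13.6 and 8.85 CPM, on 17 to 24 UMIs in each library. This was 2.41%, 3.60%, 6.47% and 7.08% of the TAL-like level of each library. Beside it, 9 of the 10 TAL markers stood in PT-like nuclei at up to 3.64%, 2.81%, 6.85% and 9.45% of their TAL-like level, and the other, Cldn10, at 81.5% to 411%. Hk1 was thus above all 9 at 64 h. At 96 h and 28 d only Ppp1r1b, on 1 and 14 UMIs in PT-like nuclei, was above Hk1. The next marker, Umod, stood at 4.31% and 3.04%, under Hk1. The part of stray RNA in the Hk1 values, and so in the calls of Hk1 at 96 h and 28 d, was not tested.

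**Figure D3:**
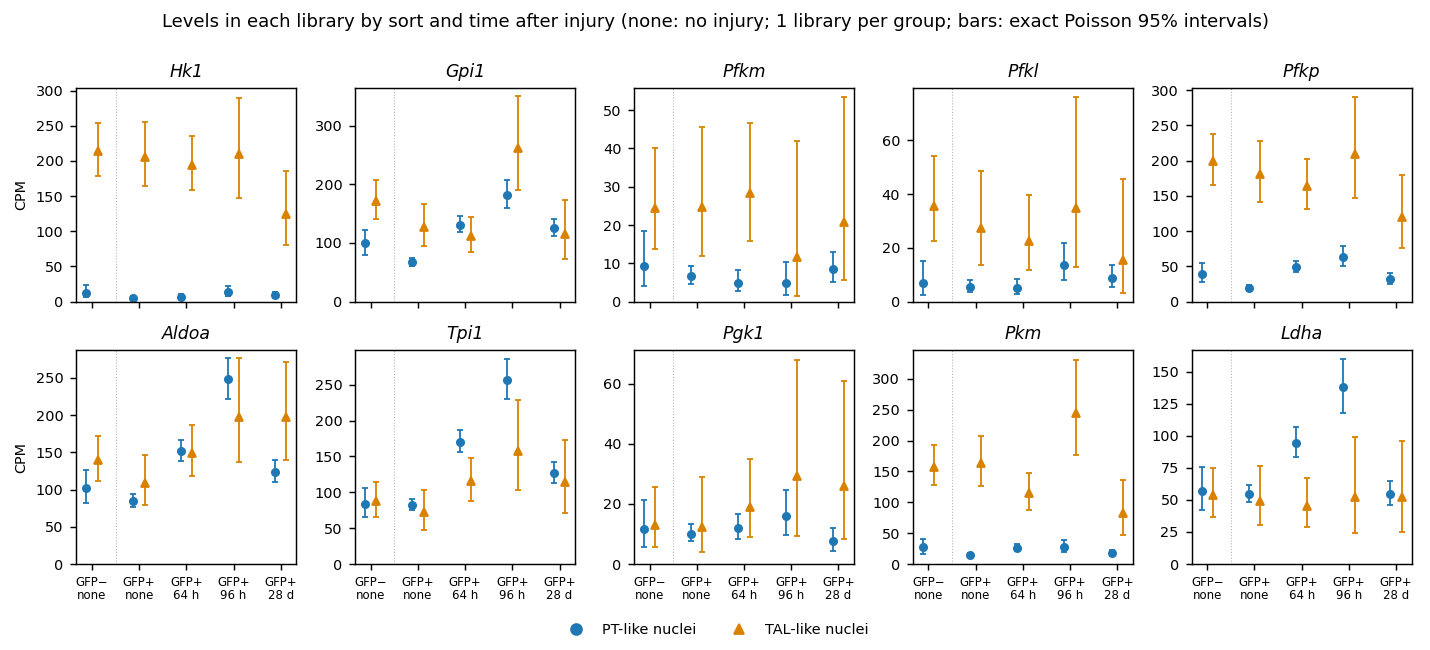
CPM of each enzyme (y axis) in PT-like (blue circles) and TAL-like (orange triangles) nuclei of the 5 libraries (x axis, by sort and time after injury), with exact Poisson 95% intervals. PT-like levels of Aldoa, Tpi1 and Ldha peak at 96 h (248, 257 and 138 CPM), while Hk1 and Pkm stay under the TAL-like levels at every time.

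From 96 h to 28 d, 6 of 10 enzymes were lower in PT-like nuclei (30.3% of all genes) and 1 was higher (10.3%). Ldha stood at 0.397 (0.314 to 0.502) of its 96 h level, Tpi1 at 0.493 (0.420 to 0.578), Aldoa at 0.4999 (0.425 to 0.588) and Pfkp at 0.509 (0.366 to 0.706). Gpi1 was not among the 6, at 125 against 182 CPM.

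The count at 28 d was small and moved with the processing: it was 1 of 10 with a pseudocount of 10 CPM or over all GFP positive nuclei, and 2 of 7 measured when nuclei were thinned to 600 UMIs. Of all genes, 4.77%, 12.9% and 13.3% were higher in these settings, in that order. The count at 96 h, in the shallowest library, was 5 of 6 measured after thinning (31.9% of all genes), which left out 1504 of its PT-like nuclei. It was 8 of 10 higher and 1 lower with glycolytic genes allowed among the variable genes (33.3% and 17.6% of all genes), where that cluster of 1767 nuclei was not counted as PT-like. Without cluster 9 it was 7 higher and 2 lower (34.4% and 18.6%). Against PT-like nuclei of the GFP negative library, a reference chosen after the data were seen, 2 of 10 enzymes were higher and 2 lower at 64 h, 6 of 9 higher at 96 h, and 1 of 10 higher and 1 lower at 28 d. Of all genes, 24.5%, 31% and 14.7% were higher and 22.8%, 18.4% and 22% lower against that reference. The median log2 difference of the enzymes was 0.17, 0.87 and -0.09.

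Because different clusters supplied the PT-like nuclei at each time, levels were also read within clusters. In cluster 6, led by Slc5a12, Slc5a2 and Gatm among others, the summed level of the 10 enzymes was 340 CPM (308 to 374) in the uninjured GFP positive library, then 516 (431 to 612), 848 (587 to 1185) and 483 (431 to 540.2) by time. Cluster 10, led by Slco1a6 and Slc13a1 among others, had 392 CPM (336 to 456), 708 (586 to 848), 839 (679 to 1026) and 546 (493 to 604). Cluster 8, which held most of the 64 h nuclei, went from 541 CPM (437 to 662) without injury to 659 (626 to 694), 963 (774 to 1186) and 546 (425 to 691), and its uninjured level was the highest of the PT-like clusters in that library. Cluster 9 stood at 780.2 CPM (648 to 931), 987 (925 to 1051) and 564 (441 to 710) after injury. In each cluster present at all 3 times after injury, then, the highest summed value was at 96 h. Cluster 11 went from 388 CPM (340 to 442) to 524 (441 to 618) at 28 d, and cluster 7 from 326 CPM (301 to 352) to 486 (425 to 552).

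Gpi1 was at least 1.5-fold higher at 28 d than without injury in clusters 6 (1.68, 1.19 to 2.38), 7 (1.89, 1.38 to 2.57), 8 (1.59, 0.823 to 3.11), 10 (2.30, 1.46 to 3.73) and 11 (1.72, 1.07 to 2.75). Pfkp was so in cluster 6 (1.75, 0.828 to 3.69), cluster 7 (2.42, 0.933 to 5.90) and cluster 10 (2.60, 1.04 to 7.76). At that time 3 of 7 measured enzymes were higher in cluster 6, 4 of 8 in cluster 7, 1 of 4 in cluster 8, 2 of 5 in cluster 10 and 2 of 5 in cluster 11, where 14.5%, 15.8%, 17.6%, 17.5% and 17.8% of all genes were. In cluster 8 Aldoa and Ldha were lower, at 0.413 (0.172 to 0.892) and 0.567 (0.199 to 1.44), where 14% of all genes were. At 64 h cluster 8 had 3 of 7 higher (33% of all genes), among them Tpi1 at 1.67 (1.04 to 2.85) and Pfkp at 4.32 (1.17 to 36.1), the latter against 2 uninjured UMIs. The third was Pkm, with 54 UMIs against 0. Gpi1 at 1.26 (0.792 to 2.12), Ldha at 0.999 (0.609 to 1.75) and Aldoa at 0.873 (0.600 to 1.31) did not pass the fold in that cluster, unlike in the whole class. At 96 h Tpi1 was at 4.08 (2.28 to 7.57) in cluster 8, the 1 higher of 4 measured (25.2% of all genes), with Aldoa at 1.38 (0.758 to 2.47), Gpi1 at 0.990 (0.411 to 2.24) and Ldha at 0.885 (0.331 to 2.16).

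Without injury Pfkp also varied within the proximal tubule. In the GFP positive library it stood at 55.5 CPM (38.2 to 77.9) in cluster 11 and 37.4 (22.2 to 59.1) in cluster 20, led by Col8a1 and Slc34a3 among others. The other clusters stood lower, at 14.2 (8.25 to 22.7) in cluster 6, 13.8 (5.08 to 30.1) in cluster 10, 11.5 (1.39 to 41.6) in cluster 8 and 7.76 (4.34 to 12.8) in cluster 7. Cluster 11 was above cluster 7 by 7.15 times (3.77 to 14.2) and above cluster 6 by 3.92 times (2.12 to 7.50). In the GFP negative library cluster 20 stood at 83.1 CPM (33.4 to 171) on 7 UMIs, and its interval overlapped that of cluster 11.

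**Figure D4:**
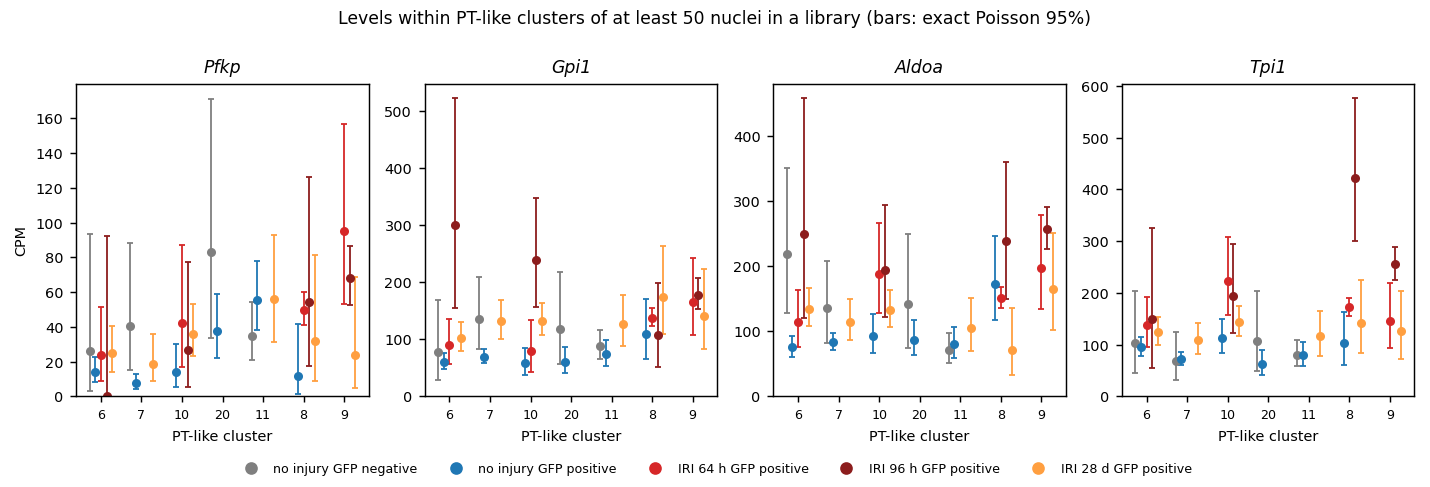
CPM of Pfkp, Gpi1, Aldoa and Tpi1 (y axes) within PT-like clusters (x axis) that held at least 50 nuclei in a library, by library (color), with exact Poisson 95% intervals. In the uninjured GFP positive library Pfkp is highest in clusters 11 and 20 (55.5 and 37.4 CPM), and Gpi1 at 28 d lies above the uninjured GFP positive value in each cluster measured in both.

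Injury-led nuclei differed from PT-like nuclei of the same library at the 3 steps known for control of the pathway, hexokinase, phosphofructokinase and pyruvate kinase. Hk1, Pfkp and Pkm were higher there in all 3 libraries after injury and in the uninjured GFP positive one, where Hk1 rested on 2 UMIs (2.67 times, 0.306 to 10.8). The cluster was made from these same nuclei, with the enzymes kept out of the variable genes, so these values are descriptions. Pkm was at 126 CPM (99.2 to 159) against 26.0 at 64 h, 4.87 times as much (3.48 to 6.81), at 91.9 against 27.9 at 96 h (3.29, 1.93 to 5.57) and at 44.6 against 17.3 at 28 d (2.58, 1.43 to 4.51). Pfkp was at 90.5 CPM (67.8 to 118), 135 (96.6 to 183) and 100.4 (73.2 to 134), or 1.84 times (1.32 to 2.54), 2.14 times (1.43 to 3.15) and 3.13 times (2.12 to 4.59) the PT-like level. Hk1 was at 22.2, 42.7 and 20.1 CPM, on 9 to 13 UMIs, or 3.16 (1.45 to 6.68), 3.15 (1.41 to 6.88) and 2.27 (0.914 to 5.16) times the PT-like level. These 3 genes were also lowest in PT-like nuclei among the 5 named classes of the uninjured GFP positive library. Thin limb-like nuclei held 113, 111 and 115 CPM of Hk1, Pfkp and Pkm there, and TAL-like nuclei held more. The direction of these gaps is thus not particular to injury-led nuclei.

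At 64 h, 3 of 8 measured enzymes were higher in injury-led nuclei and 0 lower, where 22% and 17.9% of all genes were. At 96 h, 3 of 8 were higher and 2 lower (17.3% and 19.1% of all genes), the lower ones being Gpi1 at 0.614 (0.415 to 0.883) and Pgk1 at 0.412 (0.0467 to 1.70). At 28 d, 3 of 10 were higher and 2 lower (17% and 22.3%), Pfkm and Pgk1 with 1 and 2 UMIs in injury-led nuclei. Without injury 4 of 10 were higher and 1 lower (19.9% and 32.2%), the fourth being Aldoa at 1.56 (0.945 to 2.45). Aldoa and Tpi1 stood at 266 and 223 CPM in injury-led nuclei at 96 h, against 248 and 257 in PT-like nuclei. Proximal tubule genes stood at 32.3% to 47.7% of their PT-like level in injury-led nuclei, so the cluster shares RNA with the proximal tubule, whether from within or from stray RNA, which was not tested.

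Over time within injury-led nuclei, 4 of 6 measured enzymes were higher at 64 h than without injury, 6 of 6 at 96 h, and 2 at 28 d with 1 lower. Of all genes, 39.2%, 38.2% and 23.5% were higher and 12.3% lower at 28 d. Tpi1 at 96 h had the widest gap, 223 against 79.6 CPM (2.81 times, 1.51 to 5.70). Ldha stood at 72.9, 99.0, 141 and 46.8 CPM. With TMM scaling 3, 5 and 2 of 6 were higher and 0, 0 and 1 lower. Beside these, 32.5%, 29.7% and 23% of all genes were higher and 14.2%, 24.7% and 12.3% lower.

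The summed enzyme level of TAL-like nuclei was 971 CPM (878 to 1072) in the uninjured GFP positive library, 966 at 64 h, 1409 at 96 h and 870 at 28 d, giving ratios of 0.994 (0.870 to 1.14), 1.45 (1.23 to 1.71) and 0.895 (0.743 to 1.08). The 64 h value joined 2 clusters that stood apart, cluster 3 at 1245 CPM (1096 to 1410), above its 967 CPM (872 to 1070) without injury, and cluster 2 at 796 CPM (703 to 898). PT-like nuclei had ratios of 1.86 (1.74 to 1.99), 2.75 (2.55 to 2.97) and 1.47 (1.36 to 1.58) from a lower base, 350 CPM, and reached 963 CPM at 96 h. No test of the difference between the segments was possible with 1 library per time.

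In TAL-like nuclei 1 of 9 measured enzymes was higher at 64 h, Tpi1 at 1.60 times (1.02 to 2.59), where 21.7% of all genes were, and 0 were lower, where 15% of all genes were. At 96 h it was 3 of 7 (28% of all genes): Gpi1 at 2.07 (1.36 to 3.16), Aldoa at 1.82 (1.13 to 2.91) and Tpi1 at 2.19 (1.25 to 3.83). At 28 d 2 of 7 were higher (19.5%), Aldoa at 1.82 (1.14 to 2.87) and Tpi1 at 1.59 (0.873 to 2.87), and 3 were lower (14.4%). The lower ones were the genes that set the TAL apart without injury: Pkm at 83.3 against 164 CPM (0.510, 0.275 to 0.890), Hk1 at 125 against 206 (0.608, 0.369 to 0.967) and Pfkp at 119.8 against 181 (0.662, 0.395 to 1.07). TAL-like nuclei also came from different clusters: cluster 3 held 95.5% of them without injury, and cluster 2, with Lcn2 and Clu among its leading genes, 64.9%, 97.6% and 59.9% after injury. Within cluster 3 the picture at 64 h differed from that of the whole class, with 4 of 8 measured enzymes higher and 0 lower (18.1% and 14.9% of all genes): Ldha at 2.20 times (1.06 to 4.61), Aldoa at 2.15 (1.37 to 3.36), Pfkm at 1.95 (0.730 to 5.23) and Tpi1 at 1.68 (0.946 to 2.98). At 28 d 3 of 7 were higher and 1, Pkm, was lower in cluster 3 (19.9% and 18.1%), while Hk1 at 0.717 (0.367 to 1.29) and Pfkp at 0.700 (0.334 to 1.33) did not pass the fold there. With TMM scaling, of the same measured enzymes, 1, 3 and 1 were higher and 0, 0 and 3 lower at the 3 times, with 18.3%, 19.7% and 12.5% of all genes higher and 17.1%, 34.4% and 21.7% lower. At 28 d the summed level was 996 CPM (796 to 1232) in cluster 3 and 769 (611 to 954) in cluster 2.

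The remaining segments had few nuclei and wide intervals. Thin limb-like nuclei had 4, 7 and 3 of 7 measured enzymes higher at 64 h, 96 h and 28 d and 0 lower. Of all genes, 32.2%, 30.3% and 23% were higher and 17.9%, 24.4% and 17% lower. Tpi1 was at 56.5, 147, 238 and 112 CPM there, 4.22 times (2.06 to 8.38) the uninjured level at 96 h, and Hk1 at 113, 147, 286 and 199.6 CPM. With TMM scaling 2, 3 and 1 of the same 7 were higher and 0 lower, beside 16%, 14.4% and 13.1% of all genes higher and 31.2%, 43.7% and 25.5% lower. Of the 288 uninjured nuclei, 76 were in cluster 19, which had none after injury. Without it in the reference, an alternative chosen after the data were seen, the counts were again 4, 7 and 3 of 7, with 0 lower. Beside these, 30%, 27% and 19.9% of all genes were higher and 18.2%, 25.5% and 16.7% lower. Proximal tubule genes stood at 28.0% of their PT-like level without injury and 9.28%, 15.5% and 35.8% after it, by time, and their part in the ratios was not tested.

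DCT-like nuclei had 4 of 6 higher at 64 h (20% of all genes) and 3 of 5 at 28 d (17.5%), with 0 lower at 28 d (19.8%) and too few nuclei at 96 h. Pfkp stood at 57.1 CPM (29.5 to 99.8) without injury and 348 CPM (209 to 543) at 64 h, 6.09 times as much (2.81 to 13.8), on 12 and 19 UMIs. Pkm was 4.23 times (1.63 to 11.1) and Hk1 2.88 times (1.25 to 6.498) the uninjured level. Proximal tubule genes stood at 43.4% of their PT-like level in the uninjured DCT-like nuclei and 13.0% in those at 64 h, and the part of this in the ratios was not tested. The GFP negative library, where they stood at 7.78%, had Pfkp at 68.7 CPM (39.3 to 112) in DCT-like nuclei.

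CNT-like nuclei had 2 of 7 higher and 1 lower at 64 h (23.6% and 19% of all genes), 5 of 6 higher at 96 h (21.9%), and 2 of 7 higher and 1 lower at 28 d (18.9% and 14.1%). Pkm went from 45.2 CPM to 186 (113 to 286) at 64 h, on 11 and 20 UMIs. Hk1 at 96 h was at 285 CPM (136 to 523), on 10 UMIs. Proximal tubule genes stood at 47.5% of their PT-like level in these nuclei without injury, at 26.0%, 14.5% and 53.2% at 64 h, 96 h and 28 d, and their part in the ratios was not tested. With TMM scaling 4 of 6 were higher and 0 lower at 96 h, with 7.26% of all genes higher and 60.8% lower.

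**Figure D5:**
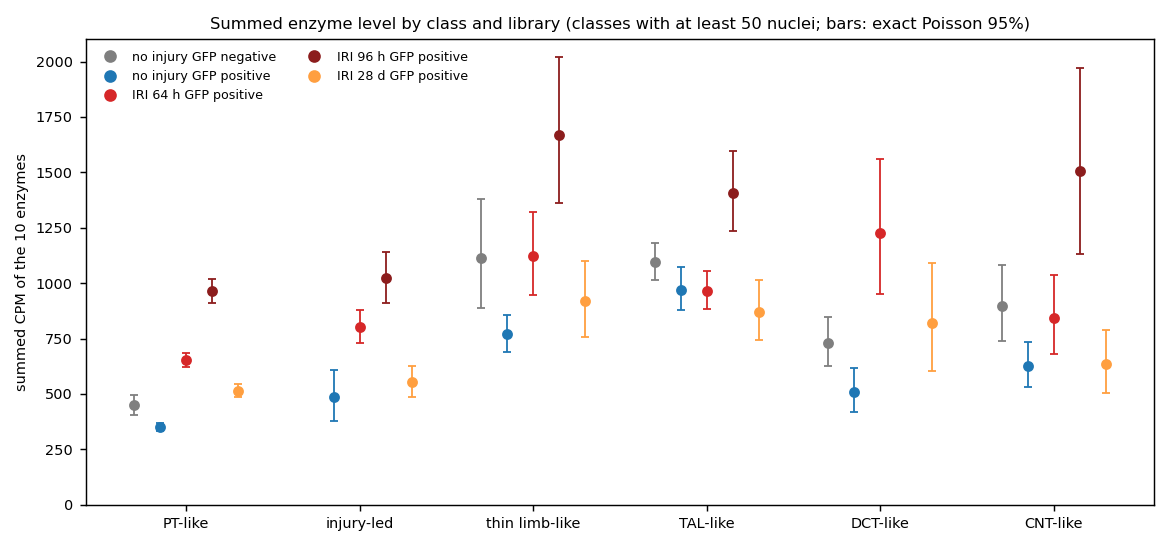
Summed CPM of the 10 enzymes (y axis) in each class with at least 50 nuclei (x axis), by library (color), with exact Poisson 95% intervals. The 96 h value is the highest in each class that has one, from 963 CPM in PT-like to 1668 CPM in thin limb-like nuclei.

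Among the other glycolytic enzyme genes in PT-like nuclei, Pgam1, Eno1 and Pklr were higher at 64 h, Pgam1, Eno1, Eno3, Pklr and Gapdh at 96 h, and Eno3 at 28 d. Pgam1, phosphoglycerate mutase, stood at 35.8, 71.9 and 74.95 CPM without injury, at 64 h and at 96 h, and Eno1, enolase, at 49.2, 81.7 and 98.9 CPM. Gapdh was at 7.66 and 42.3 CPM without injury and at 96 h, but 90.5% of the 50-base windows at its 3′ end occur in other genes, mostly processed copies, and 75.2% for Eno1, so these counts are uncertain. Pklr was 1.85 times (1.26 to 2.74) the uninjured level at 64 h. For the described enzymes such windows made up 7.32% for Pgk1, 4.21% for Gpi1 and 3.33% for Aldoa, and none for the other 7.

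Enzymes that set fructose 2,6-bisphosphate, the activator of phosphofructokinase, gave 1 of 5 measured higher in PT-like nuclei at 64 h, beside 22.9% of all genes, namely Pfkfb4 at 1.56 times (1.15 to 2.13), and at 96 h Pfkfb4 was at 1.76 times (1.18 to 2.57) while Tigar, which breaks the activator down, was lower on 4 UMIs (36% of all genes higher and 13.9% lower). None passed the fold at 28 d. Of 8 gluconeogenic genes, 1 was higher and 2 lower at 64 h, 2 and 2 at 96 h, and 1 and 1 at 28 d, beside 22.9%, 36% and 12.8% of all genes higher and 12.1%, 13.9% and 8.79% lower. Pck1 stood at 419.9 CPM without injury and 226 CPM at 64 h, and Fbp1, which opposes phosphofructokinase, at 0.566 (0.4999 to 0.639) of its uninjured level at 96 h and 0.590 (0.537 to 0.647) at 28 d. Slc37a4, the glucose 6-phosphate carrier, was at 1.92 times (1.66 to 2.22) the uninjured level at 28 d.

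Carriers of glucose, lactate and pyruvate gave 3 of 11 measured higher and 1 lower at 64 h, 2 of 10 and 5 at 96 h, and 2 of 11 and 1 at 28 d in PT-like nuclei, where 22.9%, 36% and 12.8% of all genes were higher and 12.1%, 13.9% and 8.79% lower. The share higher at 64 h was near that of all genes. Slc2a1, the basal glucose uptake carrier, stood at 3.93, 7.37 and 16.7 CPM without injury, at 64 h and at 96 h, on 19 to 21 UMIs. Slc5a12, which takes up lactate from the urine, was at 0.361 times (0.337 to 0.386) the uninjured level at 96 h, Slc5a8, of like function, at 0.455 (0.374 to 0.550), and the sodium-glucose carrier Slc5a2 at 0.391 (0.349 to 0.436) at 64 h. Slc16a1, a lactate and pyruvate carrier, was at 2.40 times (1.87 to 3.09) at 64 h. In TAL-like nuclei 0 of 8 carriers were higher and 5 lower at 96 h (28% and 24.1% of all genes), among them Mpc1, of the mitochondrial pyruvate carrier, at 0.241 (0.101 to 0.499) and Slc16a7 at 0.336 (0.227 to 0.482). Mpc1 was also lower in PT-like nuclei at 96 h, at 0.553 (0.430 to 0.702).

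Genes known to be induced by hypoxia outside glycolysis had shares higher near those of all genes (22.9%, 36% and 12.8%, with 12.1%, 13.9% and 8.79% lower) in PT-like nuclei, with 3 of 12 measured higher and 3 lower at 64 h, 4 of 11 and 3 at 96 h, and 2 of 11 and 0 at 28 d. Adm, which encodes the vessel-widening peptide adrenomedullin, was at 3.31 CPM in the uninjured GFP positive library and 16.5, 10.4 and 6.75 CPM in those after injury, by time. Vegfa, the vascular growth factor gene, was at 0.606 (0.545 to 0.673) of the uninjured level at 64 h, and Bnip3, of mitochondrial turnover, at 0.350 (0.225 to 0.524) at 96 h. Ndrg1 was at 1.88 times (1.81 to 1.95) at 96 h. The transcript of Hif1a itself stood at 86.5, 80.7, 63.0 and 83.1 CPM in the same libraries and passed the fold at no time.

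Of 9 regulators of glycolytic genes, 1 was higher at 64 h, 2 higher and 1 lower at 96 h, and 2 higher and 1 lower at 28 d, beside the same shares of all genes. Mlxipl, the carbohydrate response factor, stood at 708 CPM without injury and 1131 CPM at 96 h (1.60 times, 1.4999 to 1.70), and Ppargc1a, a coactivator of mitochondrial genes, at 315 and 156 CPM (0.497, 0.426 to 0.577). Of 4 splicing factors known to choose between the alternative Pkm exons, Ptbp1 stood at 55.2 CPM without injury and 196 CPM at 96 h, 3.55 times as much (2.97 to 4.24), and at 1.58 times (1.31 to 1.90) at 28 d. Hnrnpa1 was 2.97 times (1.67 to 5.42) and 3.66 times (1.85 to 7.23) the uninjured level at 64 h and 96 h, on 35 and 19 UMIs. Of 10 measured genes of the pyruvate dehydrogenase complex and its kinases, which govern the entry of pyruvate into mitochondria, 0 were higher and 1 lower at 64 h, 1 higher and 2 lower at 96 h, and none either way at 28 d, against those shares. At 96 h Pdk1 had 0 UMIs against 21 without injury. Tubule injury genes were higher in 10 of 10, 11 of 11 and 7 of 8 measured at the 3 times in the same nuclei, with Havcr1, the kidney injury molecule, at 3.72 CPM without injury and 109 CPM at 96 h.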

How the data were processed

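Single-nucleus RNA was captured as 10x 3' libraries and, per the submitters' processing notes, processed with Cell Ranger 2.1, STAR 2.5.1b and bcl2fastq 2.17 on an mm10 pre-mRNA reference, so intronic reads count. The authors deposited matrices of raw UMI counts, genes by nuclei. Intronic capture favours long genes, so shares of UMIs between isozymes depend on gene length and are also given per kb of gene span and of exon where a second isozyme had UMIs in PT-like nuclei.

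Nuclei under 200 genes or over 10% mitochondrial UMIs were dropped and the rest clustered with scanpy 1.11.5 (2000 variable genes by library, 30 principal components, 15 neighbours, Leiden resolution 1). Clusters were named from at least 3 detected markers, by rules settled after the clusters were seen, with type A and type B intercalated clusters joined. Scrublet marked at most 0.150% of nuclei, so its calls were not used and doublets remain. UMIs were summed per library and class, and classes with at least 50 nuclei were compared as CPM, with exact Poisson, Clopper-Pearson and conditional ratio intervals. Log2 differences used a pseudocount of 1 CPM. TMM factors came from edgeR 4.0.16 and were used for scaling alone. The summing was tested on simulated data.

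Named genes were the 10 enzymes, their isozymes, and genes of fixed lists past the 1.5-fold threshold on at least 20 UMIs, or up to 4 examples per list by UMIs. The enzymes and lists were chosen with earlier results of these data known. Alternatives were other clustering resolutions, stricter filters, glycolytic genes allowed among the variable genes, TMM, another pseudocount and UMI minimum, thinning, all GFP positive nuclei and injury-led nuclei added. One gene of the lists is not reported here, and neither are the shares and the list count that need it.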

Additional observations from a re-analysis of the deposited data

How the results depend on the processing

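In PT-like nuclei the 28 d count of higher enzymes, 5 of 10 as reported, was 3 of 10 with TMM scaling, 3 of 6 measured with at least 100 UMIs, 2 of 7 after thinning to 600 UMIs, and 1 of 10 with a pseudocount of 10 CPM or over all GFP positive nuclei. Of all genes, 12.8% were higher as reported, and 9.52%, 9.71%, 13.3%, 4.77% and 12.9% in those settings, in that order. The 96 h count, 9 of 10 as reported, was 5 of 6 measured after thinning, beside 36% and 31.9% of all genes. Against the GFP negative PT-like reference, added after the data were seen, the 64 h count was 2 with a median of 0.17 and the 28 d count was 1. Of all genes, 24.5% and 14.7% were higher there. The Pfkp TAL to PT ratio was 13.8 after thinning. The Pfkp share was 41.2% per kb of span and 34.0% per kb of exon in PT-like nuclei, and 59.3% and 54.0% in TAL-like nuclei. Among values past the 1.5-fold threshold, signs turned for Hk1 at 28 d over all GFP positive nuclei (-0.018) and against the GFP negative reference (-0.49), where Pfkp at 28 d was -0.30 and Pkm at 64 h -0.044, all on the log2 scale. Pgk1 at 96 h was -0.42 with nuclei under 400 genes or over 5% mitochondrial UMIs dropped, and without cluster 9 it was -0.47 and Pkm -0.89. Among values short of the threshold, signs turned for Hk1 at 64 h (-0.79) and Pkm (-0.60) and Pfkm (-0.13) at 28 d against the GFP negative reference, for Pkm (-0.21) and Pfkm (-0.13) at 28 d over all GFP positive nuclei, for Pkm at 28 d after thinning (-0.57), and for Ldha at 28 d and Pfkl at 64 h. The causes were not tested. The thinned Pfkl ratio in the GFP negative library gave no value, since thinned PT-like nuclei held no Pfkl UMI. Gpi1, Aldoa, Tpi1, Ldha and Pfkp stayed above the uninjured level at 64 h and 96 h in each of the 13 alternatives tried, the GFP negative reference included. Of these, another pseudocount or UMI minimum could not turn a sign. Levels within clusters were not among the 13. In cluster 8 Aldoa and Ldha at 64 h (0.873 and 0.999) and Gpi1 and Ldha at 96 h (0.990 and 0.885) were not above the uninjured level. Gpi1 (1.26) and Pfkp (4.32) at 64 h, Aldoa at 96 h (1.38) and Tpi1 at both times (1.67 and 4.08) were. No paired analysis was possible because each group has 1 library. Depth limits Hk1, Pfkm, Pfkl and Pgk1, each on 6 to 49 UMIs in PT-like nuclei of a library.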

Other observations

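Among 6296 genes with at least 500 UMIs, those whose log2(CPM + 10) followed the mean of the 10 enzymes most closely over 36 pairs of a class and a library were Wfdc2 (Pearson's r 0.84), Arrdc1 (0.79), Cd24a (0.76), Rhpn2 (0.76), Smagp (0.74), Hoxb6 (0.73), Sltm (0.73) and Nav2 (0.70). The points share libraries, depth and stray RNA, so these are descriptions. Each enzyme was instead set against the mean of the other enzymes. Pfkp had the highest r (0.71) and Pgk1 the lowest (0.026), with Hk1 at 0.60 and Pfkm at 0.08.

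Cldn10, listed as a TAL marker, stood at 238 CPM in PT-like and 292 CPM in TAL-like nuclei of the uninjured GFP positive library, and at 215 and 52.4 CPM at 96 h, unlike the other 9 markers of that list. Ldhb stood at 279.8 CPM in PT-like and 419 CPM in TAL-like nuclei of the uninjured GFP positive library, and at 282 and 669.5 CPM at 96 h. Classes with fewer than 50 nuclei in a library were not compared there. Podocyte-like nuclei, 23 to 40 in the uninjured libraries, had summed enzyme levels of 217 and 583 CPM, with intervals of 93.7 to 427 and 391 to 838.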
